A study of Mus musculus with 2 samples.

Results

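The miRNA genes examined here are 5 with a row in the count tables, from chosen imprinted loci outside chromosome 12. Other imprinted loci outside chromosome 12, such as Sfmbt2, were left out of this set. The 5 genes are Mir335 at Mest, Mir298 and Mir296 at Gnas, Mir483 at Igf2 and Mir675 at H19. They were taken by locus, with gene IDs matched without version to GENCODE M21 names, and are 5 of 1973 miRNA genes. The samples were whole hindbrains of 2 newborn B6NCrl mice, pup 1 and pup 3, each sampled at an age of 0 day and sequenced as 1 microRNA library of total RNA under 30 nucleotides. No treatment, mutation or second tissue was part of the series, and the sex of the pups was not recorded. Levels are given in CPM, which is the number of reads on the gene's own strand per 1000000 such reads over all miRNA genes of the library. The libraries held 4906127 (pup 1) and 6238680 (pup 3) own-strand counts. A count of 0 allowed up to 0.611 and 0.481 CPM, at 3 counts of the total.

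An imprinted gene is expressed mainly from the allele of one parent, under the control of a differentially methylated region that keeps a mark from egg or sperm. Mest and Igf2 are expressed from the paternal allele and H19 from the maternal allele, and the Gnas locus makes transcripts of both kinds, among them the paternal antisense RNA Nespas. Many imprinted genes act on growth, placental function and brain development, and their transcripts often carry miRNAs that are cut out by Drosha and Dicer. The mature miRNA then pairs with target mRNAs through its seed, bases 2 to 8 from the 5′ end. The tables count reads per gene and do not separate parental alleles or the arms of a hairpin, so neither imprinting nor the choice of arm was measured.

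The mature sequences are printed because they are the annotated products of these genes, and because their seeds show that the 5 genes are not a sequence family. Read sequences were not examined, so the share of counts from these products was not measured. The printed sequences are RefSeq entries on GRCm38.p6, 5′ to 3′, with the seed in capitals.
mmu-miR-335-5p: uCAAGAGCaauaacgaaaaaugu
mmu-miR-335-3p: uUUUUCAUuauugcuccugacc
mmu-miR-298-5p: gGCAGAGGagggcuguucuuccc
mmu-miR-298-3p: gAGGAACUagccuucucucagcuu
mmu-miR-296-5p: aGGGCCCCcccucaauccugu
mmu-miR-296-3p: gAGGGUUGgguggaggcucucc
mmu-miR-483-5p: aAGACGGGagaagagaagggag
mmu-miR-483-3p: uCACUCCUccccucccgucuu
mmu-miR-675-5p: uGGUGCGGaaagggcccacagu
mmu-miR-675-3p: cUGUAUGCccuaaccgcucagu

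All 10 seeds differed, and 0 other genes among the 1738 mature sequences of the RefSeq table shared one. The longest stretch common to the hairpins of any pair of members was 7 bases. Both arms of Mir335 were poor in G and C, at 30.4% for miR-335-5p and 36.4% for miR-335-3p. The 8 arms of the other genes ran from 50.0% for miR-298-3p to 68.2% for miR-296-3p. No member hairpin shared a stretch of 20 bases with another hairpin of the table, on either strand. In GENCODE M21 transcripts, each arm of Mir335, Mir298, Mir296 and Mir483 matched its own miRNA gene alone. Both arms of Mir675 also matched H19, whose exon holds that hairpin.

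The genomic settings of the genes differed (GRCm38, the assembly of mm10). Mir335 (ENSMUSG00000065501.1; chr6:30741299-30741396, plus strand) lay in an intron of 1316 bases of Mest, which encodes a hydrolase-like protein, with no exon of the 11 annotated transcripts over it. Mir483 (ENSMUSG00000070140.1; chr7:142654924-142654996, minus strand) lay in an intron of 1205 bases of Igf2, the gene of the fetal growth factor IGF2, and of the annotated gene Gm49394 that overlaps it. Mir675 (ENSMUSG00000076275.1; chr7:142577064-142577147, minus strand) lay inside an exon in 3 of 7 transcripts of the noncoding H19, and among them in exon 1 of the transcript that spans the whole gene in 5 exons. Mir296 (ENSMUSG00000065521.1; chr2:174267047-174267125, minus strand) and Mir298 (ENSMUSG00000065410.1; chr2:174267504-174267585, minus strand) lay 378 bases apart. Neither was inside an annotated gene. The annotated end of Nespas, on the same strand, was 13651 bases from Mir298.

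**Figure D1:**
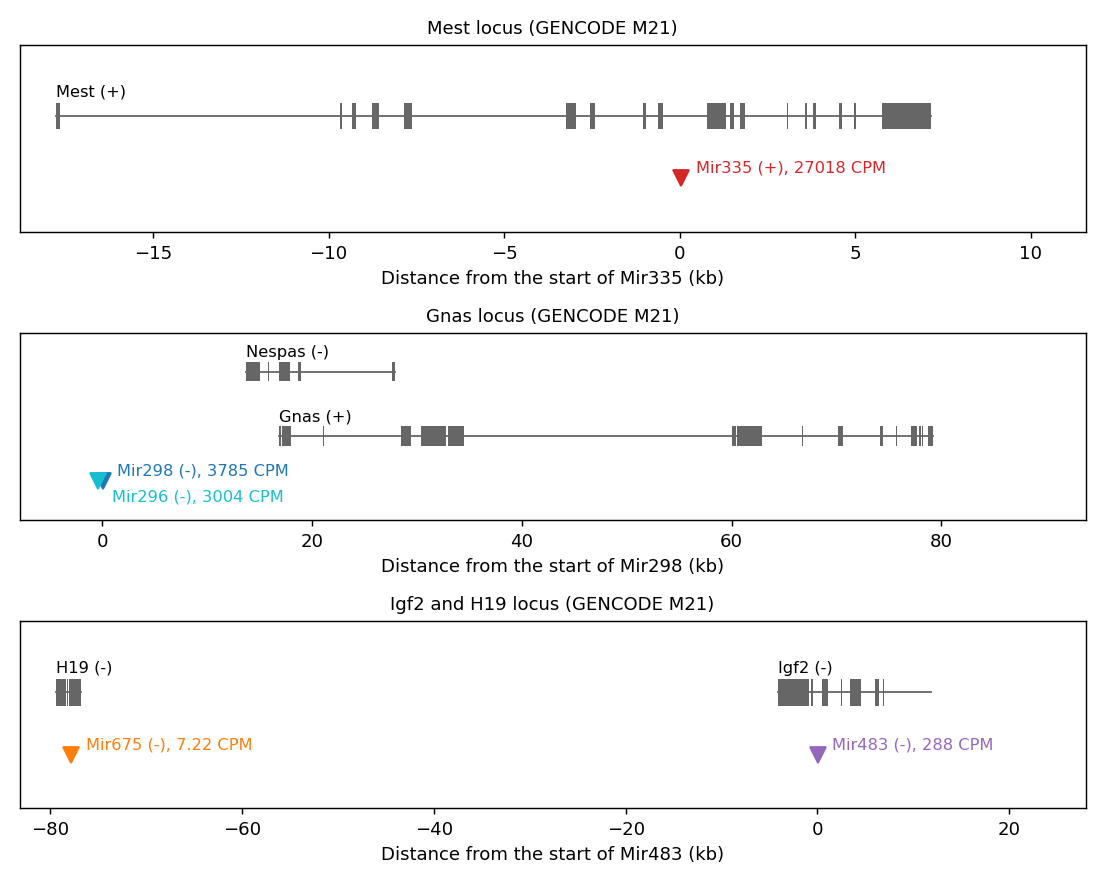
Maps of the Mest, Gnas and Igf2 and H19 loci, with distance in kb on the horizontal axis, grey boxes for exons of all annotated transcripts, triangles for the miRNA genes and strand in brackets. Mir335 and Mir483 sit between exons, Mir675 inside H19, and Mir298 and Mir296 beyond the annotated end of Nespas, with mean CPM printed beside each gene.

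Mir335 was among the most abundant miRNA genes of the newborn hindbrain. It had 124402 counts in pup 1 and 178917 in pup 3, or 25356 CPM (25218 to 25496, the exact 95% binomial interval) and 28679 CPM (28548 to 28810). Pup 3 was the higher of the pair, and the counting intervals did not overlap. The mean was 27018 ± 2349 CPM (SD, n = 2), and Mir335 ranked 9 in pup 1 and 6 in pup 3 among the 1973 genes. It supplied 77.5% of the counts of the 5 genes in pup 1 and 80.8% in pup 3. Intervals here and below cover counting error and treat each read as a molecule, which reads without molecular identifiers need not be.

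The Gnas pair stood at the next level. Mir298 had 19857 counts in pup 1 and 21980 in pup 3, which is 4047 and 3523 CPM and a mean of 3785 ± 371 CPM (SD, n = 2). Mir296, a miRNA studied for its role in blood vessel growth, had 14706 and 18778 counts. This is 2997 and 3010 CPM and a mean of 3004 ± 8.81 CPM (SD, n = 2). These SDs hold on library totals. With TMM scaling, used below, the SD was 213 CPM for Mir296 and 114 CPM for Mir298. Which of the pair varied more between pups thus depends on the scaling. Mir298 was above Mir296 in both pups and their ranges did not overlap. Their ranks by mean level were 57 and 68. The ratio of Mir298 to Mir296 within a library, which no scaling can change, was 1.35 in pup 1 (1.32 to 1.38, the exact 95% binomial interval) and 1.17 in pup 3 (1.15 to 1.19). These counting intervals did not overlap.

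The pair of genes from the Igf2 and H19 domain was far lower and unequal. Mir483 had 1511 counts in pup 1 and 1675 in pup 3, or 308 and 268 CPM, with a mean of 288 ± 27.9 CPM (SD, n = 2) and rank 179. Mir675, which is known to be released from H19 and to limit placental growth, had 41 and 38 counts. These give 8.36 CPM in pup 1 (6.00 to 11.3, the exact 95% binomial interval) and 6.09 CPM in pup 3 (4.31 to 8.36), with a mean of 7.22 ± 1.60 CPM (SD, n = 2) and rank 327. Mir483 thus exceeded Mir675, 77776 bases away on the same strand, 36.9-fold in pup 1 (27.0 to 51.6) and 44.1-fold in pup 3 (32.0 to 62.5). The counting intervals of these ratios overlap. Neither level says how much Igf2 or H19 RNA was present, since host transcripts were not measured.

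The order Mir335, Mir298, Mir296, Mir483, Mir675 was the same in both pups, and no neighbours in it overlapped between pups. Mir335 was 6.26-fold above Mir298 in pup 1 and 8.14-fold in pup 3, and Mir296 was 9.73-fold and 11.2-fold above Mir483. The closest neighbours were Mir298 and Mir296, 782 CPM apart in the mean against SDs of 371 and 8.81 CPM on library totals. With TMM scaling these SDs were 114 and 213 CPM. With n = 2 no permutation test of a step in this order can pass 0.05, so the order is a description. A small RNA read covers a whole mature product, so counts were not divided by gene length. Ligation and amplification capture some small RNAs better than others, and this part of the differences between genes was not tested.

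**Figure D2:**
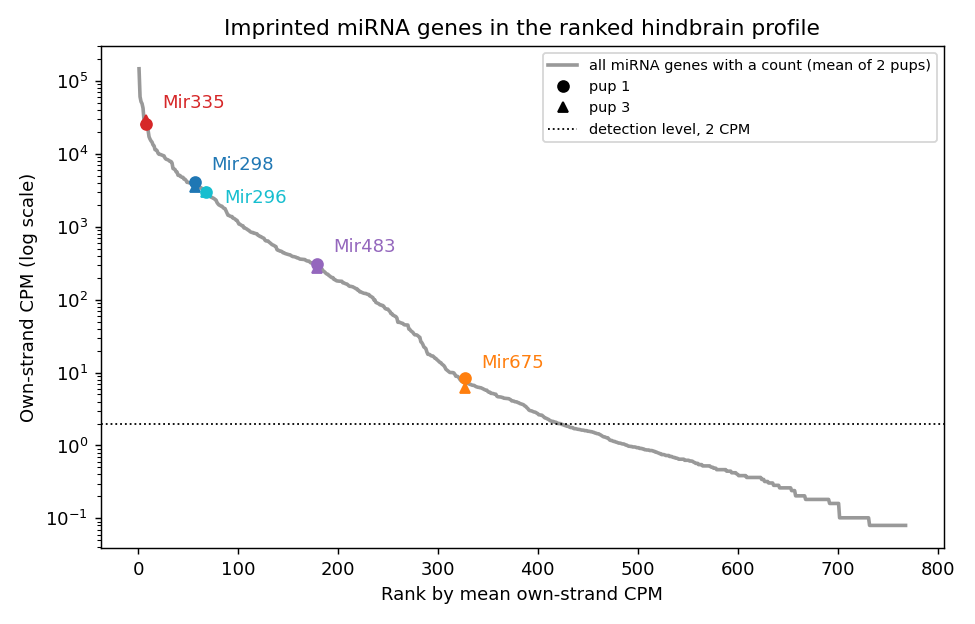
Own-strand CPM on a log axis against rank by mean CPM for all miRNA genes with a count (grey line), with the 5 genes in colour, circles for pup 1 and triangles for pup 3. The levels run from 27018 CPM for Mir335 down to 7.22 CPM for Mir675, all above the dotted detection level of 2 CPM.

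Each of the 5 genes was detected, meaning that it had 2 CPM or more in each library. The background was 20.6% of all 1973 genes and 38.3% of the 1051 with a Mir symbol. At 10 CPM in both pups 4 of the 5 remained, the exception being Mir675. Over the 407 detected genes the median of the mean level was 178 CPM, against 3004 CPM over the 5 imprinted genes. Mir335 was above 98.0% of detected genes and Mir675 above 19.7%. The 5 genes were chosen with earlier results of these data known, so these figures describe them alone and not imprinted miRNAs in general.

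Together the 5 genes took 3.27% of own-strand counts in pup 1 and 3.55% in pup 3, a mean of 3.41% ± 0.196 (SD, n = 2). Without Mir335 the other 4 took 0.736% and 0.681%. The 59 counted miRNA genes from Dlk1 to Dio3 on chromosome 12, a larger imprinted domain with many maternally expressed miRNAs, took 13.6% ± 0.698, with 47 detected. Its leading genes were Mir487b at 48750 ± 7545 CPM and Mir382 at 9816 ± 50.7 CPM (SD, n = 2), so Mir335 lay between them. The 107 miRNA genes inside Sfmbt2, an imprinted gene with a rodent-specific miRNA cluster, took 0.518% ± 0.0263, with 10 detected. Mir467d led these at 1956 ± 166 CPM and Mir467e followed at 1539 ± 145 CPM (SD, n = 2), both under Mir296. Reads that matched several genomic places were given to no gene, which lowers clusters of near-identical copies such as this one, and the difference between the groups was not tested.

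No other detected miRNA gene was found close to the 5. Within 100 kb of them, GENCODE M21 had 1 further miRNA gene, Gm27591, on the opposite strand at 19051 bases from Mir296. It had 0 counts in both pups, within the limits given above. The antisense side of the members was nearly empty as well. Mir298, Mir296, Mir483 and Mir675 had 0 opposite-strand counts in both pups, while Mir335 had 1 in pup 1 and 6 in pup 3. This made 0.000623% and 0.00271% of the counts of the 5 genes, against 3.02% and 3.39% over all miRNA genes. The latter are shares of summed counts, which a few genes could supply. How many other genes had so few opposite-strand counts was not examined.

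The genes nearest to each member by level were found by the Euclidean distance of log2(CPM + 1) over the 2 libraries, which is a likeness over 2 samples and nothing more. Mir100 and Mir130a were nearest to Mir335, at distances of 0.20 and 0.21. Mir129-2 (0.05) and Mir34c (0.08) were nearest to Mir298. Mir431, which lies in the chromosome 12 domain, and Mirlet7f-2 were nearest to Mir296, at 0.13 and 0.18. Mir666, also on chromosome 12, and Mir669l were nearest to Mir483, at 0.10 and 0.11. Mir3064 and Mir3097 were nearest to Mir675, both at 0.07.

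The pups were then compared gene by gene. The exact binomial test, two-sided, set the 2 counts of each gene against the library sizes after TMM scaling, and p-values were adjusted by Benjamini-Hochberg over 508 tested genes. It compares 2 libraries, covers counting error alone and holds no estimate of the spread between animals. When calls needed a 2-fold difference besides an adjusted p under 0.05, 0 of the 5 genes were called, against a background of 6.69%. With no minimum fold, 3 of the 5 passed, against 47.6% of all tested genes. The direction of these calls depended on the scaling. With TMM, 2 were higher in pup 3 and 1 was lower, each direction with a background of 23.8%. On library totals, 1 was higher (background 17.1%) and 2 were lower (37.8%), and with DESeq2 size factors 2 were higher (28.7%) and 0 lower (18.9%).

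**Figure D3:**
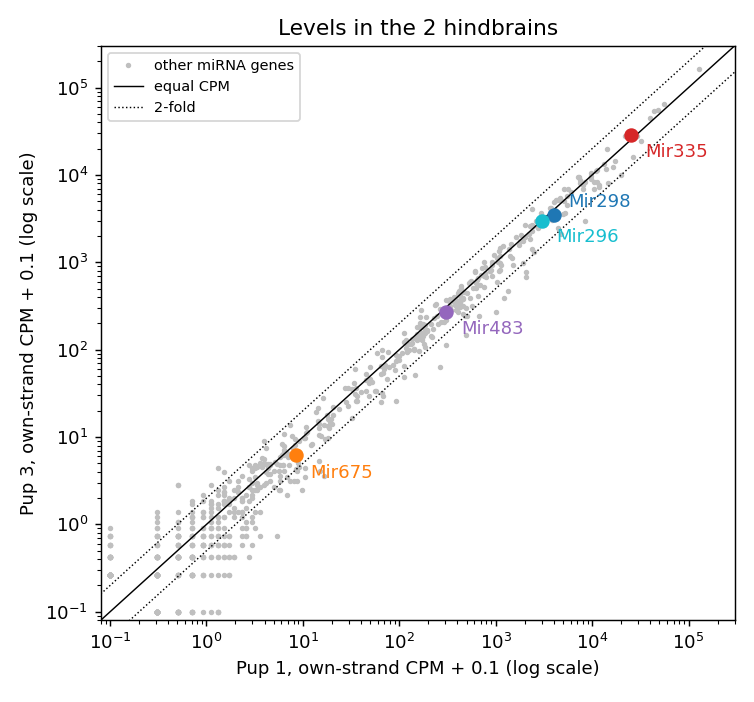
Own-strand CPM + 0.1 in pup 1 (horizontal) and pup 3 (vertical) on log axes, for all miRNA genes with a count (grey) and the 5 imprinted genes (colour), with lines for equal CPM and for 2-fold. The 5 genes lie inside the 2-fold lines.

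Mir335 was higher in pup 3 by a log2 difference of 0.32 with a counting SE of 0.01 on TMM scaling, and its exact binomial adjusted p was too small for the software to store. Of the detected genes, 57.5% had a smaller absolute difference. Mir296 was higher by 0.14 with an SE of 0.02 (exact binomial test, adjusted p = 4.32e-19), and 30.5% of detected genes had a smaller difference. Mir298 was lower in pup 3, with a log2 difference of -0.06 and an SE of 0.01 on TMM scaling (exact binomial test, adjusted p = 3.47e-05). It had -0.20 on library totals (exact binomial test, adjusted p = 1.35e-44) and 0.03 with DESeq2 size factors (exact binomial test, adjusted p = 0.0813). Mir483 had -0.06 with an SE of 0.05 (exact binomial test, adjusted p = 0.365), and 0.03 with DESeq2 size factors. Mir675 had -0.28 with an SE of 0.32 (exact binomial test, adjusted p = 0.50), so at 41 and 38 counts a difference of that size was not detectable.

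The scaling moved every gene together. The median log2 difference of detected genes was -0.14 on library totals, -0.01 on TMM and 0.08 on DESeq2 size factors. Mir335 had 0.18, 0.32 and 0.41 on these scales and lay above the median of detected genes on each. Scaling could hardly change this, since it shifts Mir335 and the median nearly alike. On library totals Mir296 had 0.01, with an exact binomial adjusted p of 0.812, so its call rests on the scaling. Mir483 had -0.20 on library totals, where its exact binomial adjusted p was 3.07e-04.

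**Figure D4:**
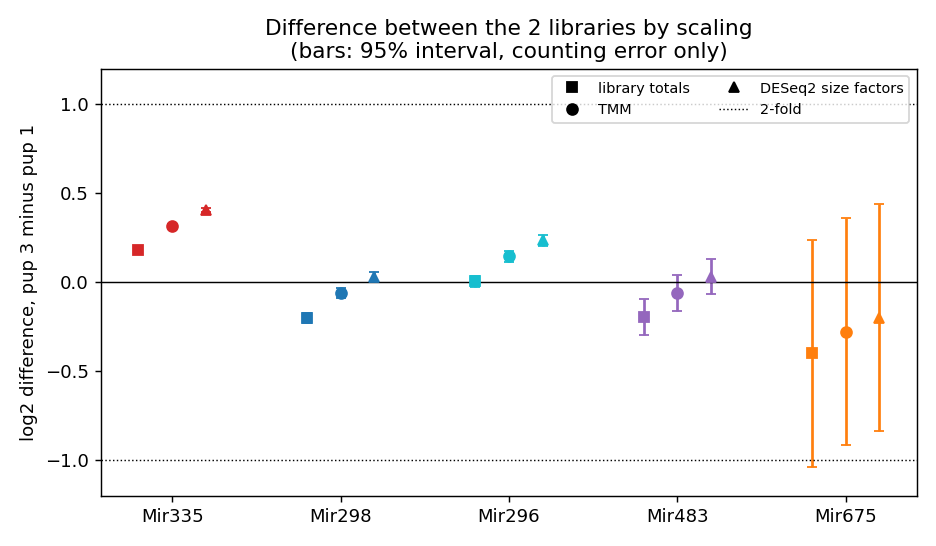
Log2 difference in CPM, pup 3 minus pup 1, for each gene with library totals (squares), TMM (circles) and DESeq2 size factors (triangles); bars are 95% intervals from the counting error. Mir335 is above 0 on all 3 scales, Mir298 and Mir483 change sign, and Mir675 has the widest bars.

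A hindbrain holds many cell types, and in such bulk RNA fewer cells of a type and less RNA per cell cannot be told apart. The labelled tissue was checked on miRNAs of the Hox clusters, which mark hindbrain and spinal cord. All 4 were detected, led by Mir10a at 32189 and 24602 CPM and Mir10b at 19914 and 10051 CPM in pups 1 and 3. The summed level of this list was 52549 CPM in pup 1 and 34974 in pup 3. Vessel wall and endothelial markers, all 3 detected, summed to 55322 CPM in pup 1 and 65476 in pup 3. Mir126a (47819 and 55787 CPM) and Mir143 (7121 and 9362 CPM) were higher in pup 3 and Mir145a (382 and 326 CPM) was lower. Choroid plexus and ependymal markers, all 4 detected, summed to 19022 and 17194 CPM, with Mir449a higher in pup 3 (4042 and 4936 CPM) and Mir204, Mir34b and Mir34c lower. On library totals, summed levels were also lower in pup 3 for the neuron list (19486 and 18224 CPM) and the oligodendrocyte list (1655 and 1534 CPM). The same held for the leukocyte and microglia list (699.9 and 496 CPM), the erythroid list (498 and 308 CPM) and the forebrain and pituitary list (808 and 739.9 CPM). On that scale the median log2 difference of detected genes, pup 3 minus pup 1, was -0.14. Drops in the neuron, oligodendrocyte and forebrain and pituitary lists were smaller than that shift, and that of the choroid plexus list was about equal. Their direction can thus change with the scaling, and the lists were not compared on other scales. Within the erythroid list, Mir451a (461 and 258 CPM) was lower in pup 3, while Mir144 (16.1 and 27.7 CPM) and Mir486 were higher. The liver marker Mir122 had 44.6 and 45.2 CPM. The skeletal and heart muscle list summed to 235 and 194 CPM, with 3 of 6 counted genes detected. Mir133a-1, Mir133a-2 and Mir1a-1 had 0 counts in both pups, but reads that map to several places in the genome are counted for no gene, so a 0 for a miRNA with numbered gene copies does not show its absence. Low counts of the neuronal Mir124a copies, 0.641 to 14.9 CPM, carry the same limit. The part of these cell types in the levels of the 5 genes was not tested.

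The precursors of the 5 genes fold into hairpins, and their predicted stability was computed. The hairpins of the most and the least abundant gene are printed to show how these differ, as RefSeq GRCm38.p6 entries, 5′ to 3′, with both mature arms in capitals.
Mir335 hairpin: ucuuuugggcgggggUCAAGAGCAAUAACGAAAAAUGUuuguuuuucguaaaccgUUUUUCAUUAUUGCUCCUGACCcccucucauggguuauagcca
Mir675 hairpin: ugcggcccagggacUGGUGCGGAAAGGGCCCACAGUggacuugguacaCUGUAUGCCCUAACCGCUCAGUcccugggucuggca

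The Mir335 hairpin had 98 bases with 42.9% G and C, and a predicted folding energy of -44.3 kcal/mol, or -0.452 per base. The Mir675 hairpin had 84 bases with 63.1% G and C and a predicted energy of -56.0 kcal/mol, or -0.667 per base. Of the 354 detected genes with a RefSeq hairpin, 99.2% had a less stable hairpin per base than Mir675, against 60.5% for Mir335. Median values over these 354 were 50.6% G and C and -0.433 kcal/mol per base. Mir296 and Mir298 lay at -0.547 and -0.521 per base, and Mir483 at -0.463. All 5 hairpins were thus more stable per base than the median, while the least abundant gene had the most stable one of the 5.

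**Figure D5:**
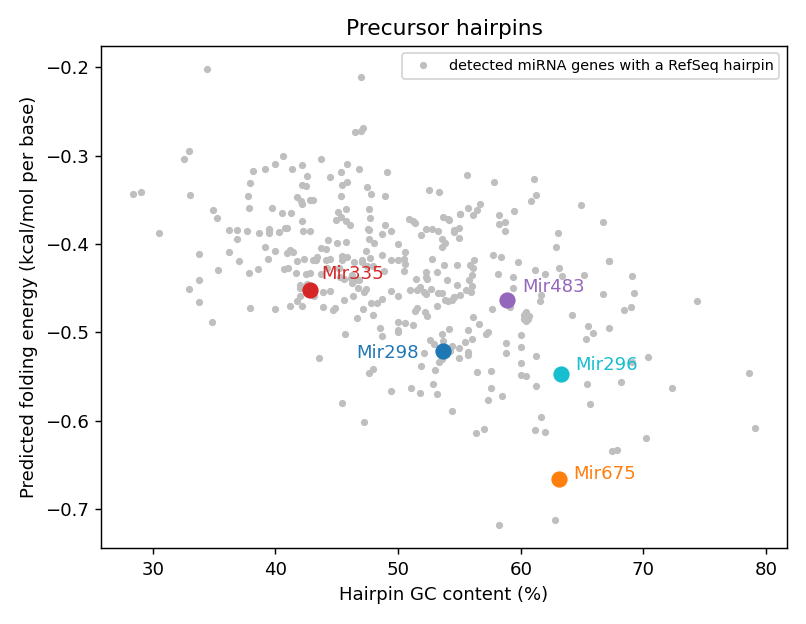
Predicted folding energy per base against GC content for the hairpins of 354 detected miRNA genes (grey) and the 5 imprinted genes (colour). Mir675 lies near the lower edge at -0.667 kcal/mol per base, and Mir335 at 42.9% G and C is the one of the 5 with a GC content under the median.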

How the data were processed

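MicroRNA-seq libraries of 2 newborn hindbrains formed 1 group, so no contrast between conditions was made. For each library the authors deposited a table of raw read counts by miRNA gene, unpooled, for either strand, the own strand and the opposite strand. Assembly mm10 and annotation M4 are named per the labels and the text files beside the tables. For the aligner and the counter, a name is not given in the sources used here. Rows that name no gene (17.7% and 13.9% of reads in the tables unmapped, 37.9% and 39.4% at several places, 2.66% and 1.59% in no feature) stayed out of totals. Own-strand counts were scaled to CPM of library totals. For differences, edgeR 4.0.16 (TMM) or DESeq2 1.42.0 gave scaling factors alone, and an exact binomial test (SciPy 1.17.1) was applied where both counts summed to 10 or more. Log2 differences carry a pseudocount of 1 CPM. With 1 library a side no quasi-likelihood model can be fitted. The calling step was tested on simulated data. Intervals are exact Clopper-Pearson at 95%.

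Of the 1973 gene IDs, 1894 matched GENCODE M21. Sequences come from RefSeq GRCm38.p6, which held hairpins for 869 of the counted genes, and folding energies from ViennaRNA 2.7.2. The labels name pup 1 and pup 3 as biological replicates 1 and 2 but give both the same donor identifier. The libraries were taken as separate animals, and the SD and n = 2 rest on that. Their counts differed by more than sampling noise (chi-square per tested gene 391). Members and lists were chosen with earlier results of these data known. Named genes are the 5 members, their 2 nearest genes by level, miRNA genes within 100 kb or with a shared seed, the 2 leading genes of each comparison list, and markers of cell types. Alternatives covered strand, scaling, detection level, count filter and leaving out each pup.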

Additional observations from a re-analysis of the deposited data

Results flagged for a closer look

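The opposite-strand counts entered no comparison of levels. Mir335 had 6 such counts in pup 3, above the 3 counts that a count of 0 allows, and 1 in pup 1. They were 0.00335% of its reads in pup 3 (0.00123 to 0.0073, the exact 95% binomial interval) and 0.000804% in pup 1.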

How the results depend on the processing

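The count of called genes went from 0 to 3 with no minimum fold. Mir296 had a mean of 2908 CPM with counts of either strand and 2992 CPM with DESeq2 size factors, against 3004 CPM. Each move was larger than the SD of 8.81 CPM between its pups on library totals. With DESeq2 size factors that SD was 344 CPM. With DESeq2 size factors the log2 difference turned to 0.029 for Mir298 and 0.031 for Mir483. From TMM to DESeq2 size factors the median over detected genes moved from -0.01 to 0.08 as well. Why the scaling factors differ was not tested. Of the log2 differences, 22 other values kept their sign, and no member was called at 2-fold in any of them. The count filter does not enter a log2 difference, so the values under other filters repeat the main ones. On the adjusted p alone, library totals moved Mir296 from 4.32e-19 to 0.812 and Mir483 from 0.365 to 3.07e-04, and DESeq2 size factors moved Mir298 from 3.47e-05 to 0.0813 (exact binomial tests). Another 38 alternative values of levels, detection, calls and order moved by less than the SD between pups (levels) or kept the count or order, except detection, which went from 5 to 4 at 10 CPM. With 2 pups, the level in either pup always lies within that SD of the mean, so leaving out a pup could not move a level. The counts over all genes were 33 to 42 called under other scalings, against 34, and 18 of 317 tested at 100 or more counts, a filter that left Mir675 untested. Depth limits Mir675 most. The 2 pups give little basis for the spread of these levels in other animals.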
